A study of Mus musculus with 4 samples.

Results

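The Iroquois homeobox factors are the 6 mouse transcription factors Irx1, Irx2, Irx3, Irx4, Irx5 and Irx6. They were found as the probes whose only gene symbol in the platform's gene table is one of these names, which gave 9 probes among the 21020 with 1 symbol and the 29922 on the array. Irx1, Irx3, Irx4 and Irx5 had 1 probe each, Irx2 had 2 and Irx6 had 3. The probe with the highest mean over the arrays stood for its gene, so that 6 of the 16675 genes tested are Iroquois genes, and the other 3 probes are given beside them.

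The study profiled pooled whole hearts of mouse embryos at embryonic day 9.5, of the strain given as C57bl/6 x129 hybrid. The control pools were wild-type, and the Salv CKO pools carried a conditional knockout (CKO) of Sav1 (Salvador), which holds the kinases of the Hippo cascade together, to ask which genes depend on that pathway during heart formation. There were 2 pools of each kind, described as biological replicates, and each was hybridised to 1 one-colour array. The sources used here give neither the number of hearts per pool nor the Cre line that deleted the gene, so the cells that lost Sav1 cannot be named. All values below are quantile-normalised log2 intensities, differences are Salv CKO minus control with limma's standard error (SE), over n = 2 pools in each group. The Sav1 probe read 9.56 and 9.30 in the controls and 9.19 and 9.13 in Salv CKO, a difference of -0.27 ± 0.13 with no call (limma adjusted p = 0.266). The sources used here do not place this probe against the deleted part, so it does not check the labels.

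Iroquois proteins carry a homeodomain of the TALE class, which has extra residues between its first helices, and act mostly as repressors that set boundaries between territories of an embryo. In mammals the genes lie in a pair of clusters, one with Irx1, Irx2 and Irx4 and the other with Irx3, Irx5 and Irx6. In the heart Irx4 marks the ventricles from early stages, while Irx3 and Irx5 act in the trabeculae, the conduction system and the graded recovery of the ventricular wall. Outside the heart Irx3 and Irx5 pattern the neural tube, and several members are expressed in the branchial arches, foregut and limb buds.

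The promoters of the 3 members that passed the test below are shown as a description of their regulatory sequence. RefSeq's table for GRCm38.p6 gave the 250 bases before the start site for Irx2, Irx3 and Irx4 (3 of the 6 members matched). The others had no entry, so no uncalled member can be compared. With 1 member called higher and 2 called lower, sequence cannot be related to direction. Capitals mark CpG dinucleotides. The windows are chr13:72628570-72628819 on the plus strand for Irx2, chr8:91801655-91801904 on the minus strand for Irx3 and chr13:73260247-73260496 on the plus strand for Irx4.
Irx2: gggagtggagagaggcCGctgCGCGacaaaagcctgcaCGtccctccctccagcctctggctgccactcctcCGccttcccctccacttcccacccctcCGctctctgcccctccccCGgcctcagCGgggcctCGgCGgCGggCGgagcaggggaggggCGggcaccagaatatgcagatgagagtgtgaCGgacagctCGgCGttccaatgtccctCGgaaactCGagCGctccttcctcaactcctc
Irx3: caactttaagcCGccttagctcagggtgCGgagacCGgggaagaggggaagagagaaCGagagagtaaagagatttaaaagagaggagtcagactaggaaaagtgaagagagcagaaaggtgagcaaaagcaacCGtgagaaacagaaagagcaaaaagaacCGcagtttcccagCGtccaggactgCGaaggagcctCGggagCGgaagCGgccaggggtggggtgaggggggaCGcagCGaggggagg
Irx4: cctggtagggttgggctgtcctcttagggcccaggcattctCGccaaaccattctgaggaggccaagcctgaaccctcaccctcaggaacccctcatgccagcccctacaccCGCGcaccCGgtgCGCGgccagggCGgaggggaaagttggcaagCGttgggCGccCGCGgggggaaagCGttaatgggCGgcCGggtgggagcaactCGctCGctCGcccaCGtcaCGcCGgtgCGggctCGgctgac

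The Irx2 and Irx4 windows, of genes that were lower, held 19 and 22 CpG dinucleotides and 68.4% and 68.8% G and C. The Irx3 window held 13 CpG dinucleotides and 56.0% G and C. Over all 32851 windows of this length in the table the medians were 6 CpG dinucleotides and 52.4% G and C. At least as many CpG dinucleotides as in the Irx4 window were held by 14.8% of windows, against 19.7% for Irx2 and 31.5% for Irx3. The letters GGAATG, the core of the site bound by the Tead factors through which the Hippo pathway acts, or their reverse complement CATTCC, were in 0 of the 3 windows and in 12.6% of all windows. A missing match says only that these letters are not in these 250 bases.

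Of the 6 Iroquois genes, 2 were lower in Salv CKO, 1 was higher and 3 were not called. Irx4, the ventricular member, fell 2.33-fold. Irx3 rose 1.51-fold, and Irx2 was 1.26-fold lower on 1 of its 2 probes. Over all genes tested, limma called 10.6% at an adjusted p under 0.05, 4.92% as higher and 5.70% as lower. The groups did not overlap for 4 of the 6 genes, which is near the 54.2% found over all genes. All 6 were above background (an intensity over 16, or log2 4) on the 4 arrays.

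**Figure D1:**
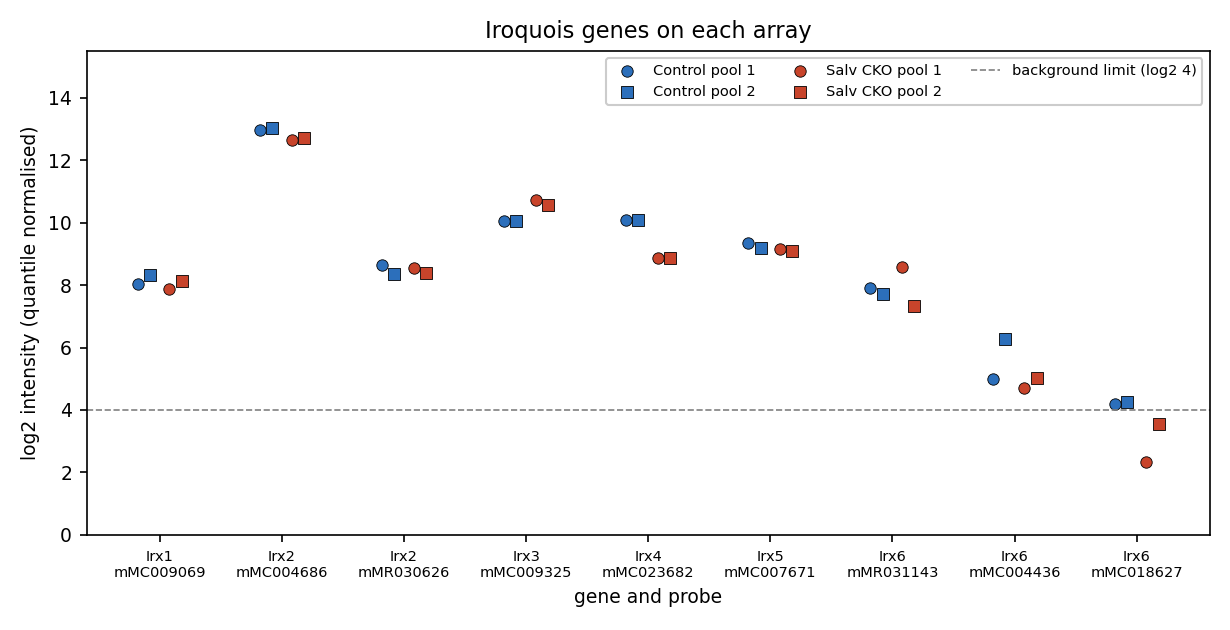
Quantile-normalised log2 intensity (y axis) of each Iroquois probe (x axis) on the 2 control arrays (blue) and the 2 Salv CKO arrays (red), with no error bars since each point is 1 pool. Irx4 sits near 10.08 in both controls and at 8.86 and 8.87 in Salv CKO, while the 3 probes of Irx6 spread most between pools.

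Irx4, which represses atrial genes in the ventricles, was at 10.08 and 10.09 in the controls and at 8.86 and 8.87 in Salv CKO. Both Salv CKO pools lay far below both controls, and pools of 1 group differed by at most 0.02. The difference was -1.22 ± 0.09 (limma adjusted p = 0.00762), a 2.33-fold fall with a 95% interval of 1.98 to 2.75, to 42.9% of the control level. As deposited, before any scaling here, its intensities were 1162 and 1368 in the controls and 387 and 409 in Salv CKO. Of the 951 genes called lower, 83 fell by at least as much as Irx4, itself included. The gene has 1 probe, so no other probe bears on it.

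Irx3, the member best known from the neural tube and the conduction system, was at 10.05 in both controls and at 10.74 and 10.55 in Salv CKO. The Salv CKO pools both lay above the controls, by at least 0.49, and differed from each other by 0.19. The difference was 0.59 ± 0.10 (limma adjusted p = 0.0290), a 1.51-fold rise with a 95% interval of 1.26 to 1.80. This call rests on the scaling between arrays. As deposited the intensities were 1134 and 1339 in the controls and 1404 and 1261 in Salv CKO, so that the groups overlapped, and the difference was 0.11 (limma adjusted p = 0.650). With those values the median over genes above background was itself -0.44, and Irx3 lay 0.55 above that median, against 0.63 above it after quantile normalisation.

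Irx2, the partner of Irx1 within its cluster, was at 12.98 and 13.03 in the controls and at 12.63 and 12.70 in Salv CKO on its brighter probe (mMC004686). The groups did not overlap, and the difference was -0.34 ± 0.07 (limma adjusted p = 0.0447), a 1.26-fold fall with a 95% interval of 1.12 to 1.43. Its other probe (mMR030626) read 8.63 and 8.34 in the controls and 8.54 and 8.40 in Salv CKO, where the groups overlapped. That probe gave -0.02 ± 0.15 (limma adjusted p = 0.960 over all probes, of which 9.56% were called), with a 95% interval of -0.42 to 0.38 that contains the value of the first. With the 2 probes averaged the difference was -0.18 and did not pass (limma adjusted p = 0.279).

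Irx1, expressed in the ventricular septum of the later heart, was at 8.04 and 8.33 in the controls and at 7.87 and 8.13 in Salv CKO. The groups overlapped, and the difference of -0.18 ± 0.18 was no larger than the 0.29 between the controls (limma adjusted p = 0.588, 95% interval -0.65 to 0.29). Irx5, the partner of Irx3 in the neural tube and the heart, was at 9.35 and 9.18 in the controls and at 9.14 and 9.08 in Salv CKO. The groups did not overlap, by a margin of 0.03, and the difference of -0.15 ± 0.11 was within the 0.17 between the controls (limma adjusted p = 0.482, 95% interval -0.44 to 0.15). With the values as deposited Irx5 was called lower, at -0.59 (limma adjusted p = 0.0397), where the median over genes was -0.44.

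Irx6, a member known from the retina, had 3 probes that did not give one answer. The brightest (mMR031143) was at 7.90 and 7.70 in the controls and at 8.57 and 7.34 in Salv CKO, so that 1 Salv CKO pool lay above both controls and the other below both. Its difference of 0.15 ± 0.42 had a 95% interval of -0.94 to 1.25 (limma adjusted p = 0.857), and its sign turned to -0.46 without Salv CKO pool 1. The second probe (mMC004436) was at 4.98 and 6.26 in the controls and at 4.69 and 5.01 in Salv CKO, a difference of -0.77 ± 0.55 (limma adjusted p = 0.463) that was -1.40 without control pool 1 and -0.13 without control pool 2. The third (mMC018627) read 4.18 and 4.25 in the controls and was at or below the background limit on both Salv CKO arrays. It was not called (limma adjusted p = 0.337), with a 95% interval of -3.01 to 0.49 that includes 0. Its measured difference was -1.87 to -0.65 with 1 array left out. The control mean lay 1.16-fold above the limit, an intensity of 16. As deposited the controls read 16.9 and 23.4, on arrays with a noise SD of 6.28 and 5.72, so no least fold is read.

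**Figure D2:**
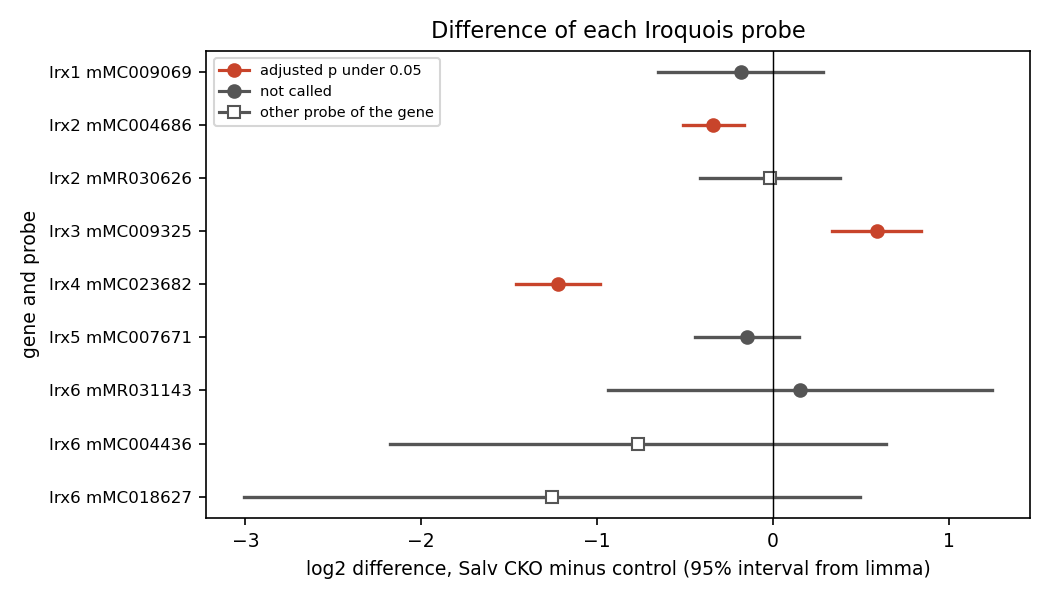
Log2 difference between Salv CKO and control (x axis) for each Iroquois probe (y axis), with the 95% interval from limma over 2 pools per group. The intervals of Irx4, Irx3 and the brighter Irx2 probe lie clear of 0, and those of the 3 Irx6 probes are the widest.

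The calls rest on a spread pooled by limma over genes, since an exact permutation test of 1 gene with 2 pools against 2 cannot go below p = 0.333. Left with any 3 of the 4 arrays limma called no gene of the whole table, and none of the 6 members, while Irx4 stayed between -1.23 and -1.21 and Irx3 between 0.50 and 0.68. Their unadjusted p in those fits was at most 0.00267 for Irx4 and 0.0317 for Irx3. Without an intensity trend in the spread no gene was called either, with Irx4 at an adjusted p of 0.125 by limma.

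Under 5 ways of scaling the arrays Irx4 was called lower each time, at -1.66 to -1.20, and Irx2 each time on its brighter probe, at -0.85 to -0.34. Irx3 was called higher under 4 of the 5 scalings, at 0.49 to 0.60, and was not called with the values as deposited. The median over genes above background was -0.07 to -0.03 under the 4 scalings that normalise and -0.44 with the values as deposited, so that Irx1, Irx5 and Irx6 moved down with it there, and Irx6 turned from 0.15 to -0.22.

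**Figure D3:**
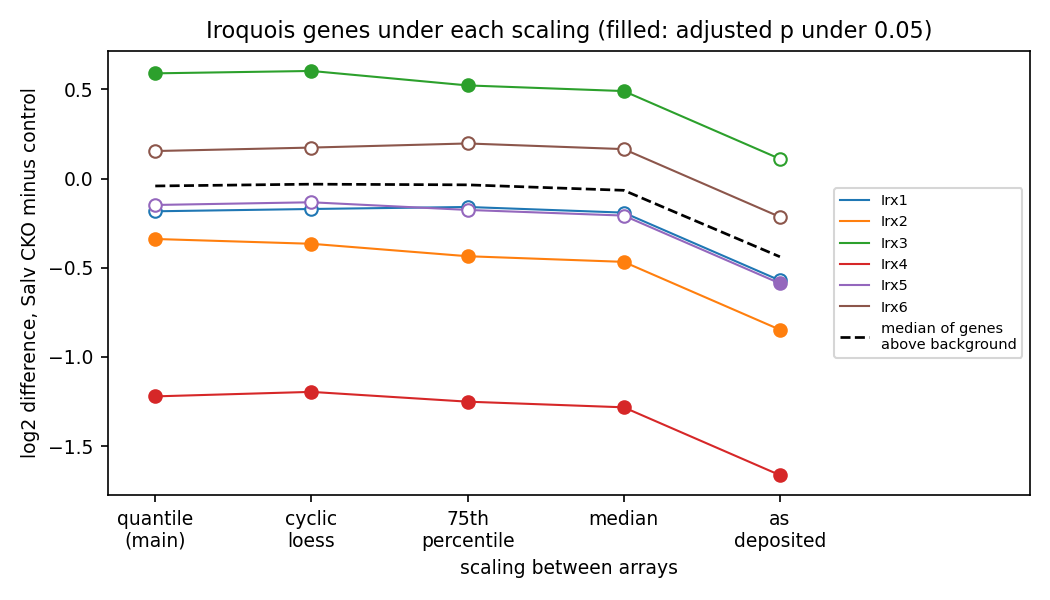
Log2 difference between Salv CKO and control (y axis) of the 6 genes under 5 scalings between arrays (x axis), where filled points passed at an adjusted p under 0.05 and the dashed line is the median over genes above background. Every gene moves down with that line when no scaling is applied, and the order of Irx3, Irx2 and Irx4 stays.

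Within each cluster the members' differences were unequal in value. In the cluster of Irx1, Irx2 and Irx4 the difference of Irx4 was 0.88 below that of Irx2 and 1.04 below that of Irx1. In the other cluster the difference of Irx3 was 0.74 above that of Irx5. Across the clusters Irx3 and Irx4 differed by 1.81 in their change. For each of these 4 pairs the within-array differences did not overlap between the groups. Their exact permutation p was 0.333, the smallest that 2 pools against 2 can give. It was also reached in all by 9 of the 15 pairs, where 54.2% of all single genes did not overlap. The other pairs within a cluster overlapped (exact permutation p of 0.667 or more). Their changes differed by 0.16 for Irx1 minus Irx2, 0.44 for Irx3 minus Irx6 and -0.30 for Irx5 minus Irx6.

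The 12 nearest measured protein-coding genes around the clusters, 3 on each side of each, gave 0 calls by limma (2 at an unadjusted p under 0.05, 1 call with the dim genes left out, and 0 to 5 over all alternatives). Beside Irx1 these were Ube2ql1 (-0.04), the Mediator subunit Med10 (-0.52) and the metalloprotease Adamts16 (0.68, not above background on any array). Beside Irx4 came the mitochondrial ribosomal protein Mrpl36 (-0.32), the acyltransferase Lpcat1 (-0.10) and the dopamine transporter Slc6a3 (-0.46). Next to Irx3 lay the RNA demethylase Fto (-0.34 ± 0.14), the ciliary gene Rpgrip1l (0.32, near background) and the pocket protein Rbl2 (-0.54 ± 0.13), which had the lowest adjusted p of the 12 (limma adjusted p = 0.0734). Beyond Irx6 the matrix protease Mmp2 was at -0.08, Lpcat2 at -0.46 and Capns2 at -0.88 ± 0.44. In value 10 of the 12 were below 0, where the median over all genes was itself -0.04. Irx3 was the 1 gene of its cluster and surroundings called higher. Over all genes 10.6% were called, 4.92% as higher, so that 0 calls among 12 neighbours is near that share.

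**Figure D4:**
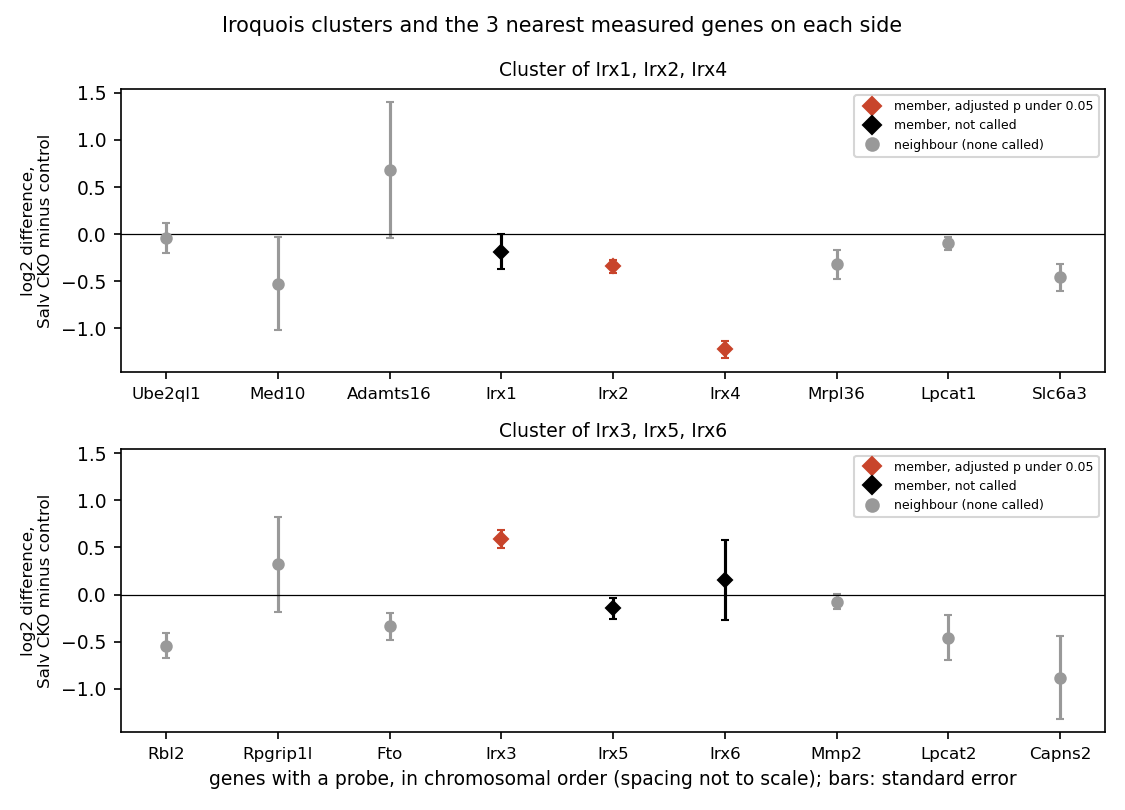
Log2 difference between Salv CKO and control (y axis, bars are the standard error from limma, 2 pools per group) for the genes of each Iroquois cluster (diamonds) and the 3 nearest measured genes on each side (grey circles), in chromosomal order with spacing not to scale. Irx4 at -1.22 lies below all the others; Irx3 at 0.59 lies within the range of the neighbours, which runs from Capns2 at -0.88 to Adamts16 at 0.68, and none of the neighbours was called.

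Some other ventricular genes were lower beside Irx4. Without Irx4 itself, 3 of 11 measured ventricular chamber genes fell and 0 rose, with a median of -0.22, beside 5.70% of all genes called lower and a median of -0.04. They were the natriuretic peptide Nppb (-0.83 ± 0.08), the small muscle protein Smpx (-0.70 ± 0.14) and the Notch effector Hey2 (-0.34 ± 0.06), with limma adjusted p of 0.0110, 0.0414 and 0.0376. Nppb read 13.27 and 13.41 in the controls and 12.47 and 12.56 in Salv CKO. On each array 68 to 122 probes lay within 1% of its highest deposited intensity, where signal no longer separates levels, and no Iroquois main probe was among them. The ventricular light chains Myl2 and Myl3 were there on both control arrays, and the atrial light chain Myl4 on all 4 arrays. Their differences are not read here, though they stand in the counts and medians of their lists. Of 12 atrial and inflow genes 1 fell and 1 rose (median -0.23), with Nr2f2 and Hcn4 at or below the background limit on all arrays. With the mean of all probes none (0) was called and the median was -0.01, with a floor of 64 again 0 were called, and without Salv CKO pool 1 the median was -0.49. The atrial connexin Gja5 fell by 1.36 ± 0.13 on its brightest probe, while its other probe gave 1.83 ± 1.36. The sinus node factor Shox2 rose by 0.46 ± 0.09 (limma adjusted p = 0.0377).

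The cardiac transcription factors include Nkx2-5, which is known to be needed for Irx4 expression in the ventricle. Of 17 measured 5 fell and 0 rose, with a median of -0.06, beside 5.70% of all genes called lower. Nkx2-5 was at 11.37 and 10.85 in the controls and at 9.35 and 9.66 in Salv CKO, a difference of -1.61 ± 0.21 (limma adjusted p = 0.0168). Gata4 (-1.19 ± 0.08), Smyd1 (-0.89 ± 0.12, and -0.19 ± 0.20 on its other probe) and Gata5 (-0.77 ± 0.14) fell too. The trabecular factor Tbx20 (0.22) and the heart tube factor Hand1 (-0.22) were not called.

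Some cardiomyocyte markers were lower beside Irx4. Of 8 markers 4 fell and 0 rose, with a median of -0.68, beside 5.70% of all genes called lower. All 8 were above background on the 4 arrays, and 1 was called higher under 3 of the other scalings. The count is not separate from that of the cardiac transcription factors, since Nkx2-5 is among the genes that fell in both lists. The markers also share uncalled members with the ventricular and atrial lists. The atrial light chain Myl7 was at 0.35 ± 0.30 and was not called. Actc1 was at the top of the range on all 4 arrays and Myh6 on both control arrays, so that Actc1 gives no difference and that of Myh6 is a bound. Without both, 3 of 6 markers fell, with a median of -0.78. The summed normalised intensity of the other 6 was 102179 to 135056 in the controls and 88626 to 93947 in Salv CKO. In whole hearts fewer cells of a type and less RNA per cell cannot be told apart, and the part of heart muscle content in the Irx4 value was not tested.

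Genes that Iroquois factors are known to act on in the heart went both ways. Of 10 measured 1 rose and 3 fell (median -0.35, and 0.05 with a floor of 16), beside 4.92% and 5.70% of all genes. The connexin Gja1, which Irx3 represses in the conduction system, was at 13.10 and 13.13 in the controls and at 14.05 and 14.10 in Salv CKO, a rise of 0.96 ± 0.06 (limma adjusted p = 0.00682). Gja5, which Irx3 is known to raise there, is given above. The calcium channel Cacna1c fell by 1.02 ± 0.14 on its brightest probe, with 0.59 ± 0.41 and -0.29 ± 0.48 on its others, and the potassium channel Kcnh2 fell by 0.80 ± 0.10. The potassium channel Kcnd2, which Irx5 represses, was at 0.90 ± 0.39 and was not called (limma adjusted p = 0.233).

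Irx3 was higher in pools in which neural tube genes were higher as well. Of 18 measured genes of neural tube progenitor domains 5 rose and 0 fell, with a median of 0.76, beside 4.92% of all genes called higher. Olig3, a factor of dorsal progenitors, rose by 2.29 ± 0.19 and was at 6.31 and 6.67 in the controls and at 8.80 and 8.76 in Salv CKO. Pax3 rose by 2.14 ± 0.28, the interneuron progenitor factor Dbx1 by 2.01 ± 0.41 and the hindbrain boundary factor Gbx2 by 1.71 ± 0.29. Olig2, the motor neuron progenitor factor from whose domain Irx3 is excluded in the neural tube, was not called on either probe. Its brightest was at -0.11 ± 0.12 (limma adjusted p = 0.612) and its other at 0.54 ± 0.23 (limma adjusted p = 0.236 over all probes).

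Some markers of tissues next to the heart were higher in the same pools as Irx3, as is any gene called higher here. The counts below stand beside 4.92% of all genes called higher and 5.70% called lower. Neural markers rose for 4 of 10, and their summed intensity was 1719 to 2005 in the controls and 9155 to 10017 in Salv CKO, or 1714 to 1949 against 5071 to 5267 without the brightest, Zic1. Neural crest markers rose for 4 of 8, at 14219 to 14505 against 49662 to 49740, most of it from Crabp1 alone, with Foxd3 at or below the background limit on every array. The other 7 crest markers summed to 957 to 987 against 2329 to 2406. Gut endoderm markers rose for 3 of 9 (0 with a floor of 16 or 64), at 3810 to 4073 against 8283 to 8383. Somite markers rose for 3 of 8, at 685 to 698 against 3803 to 3825 (310 to 353 against 756 to 804 without Tcf15), with Myf5 at or below the background limit throughout. With a floor of 16 the neural, neural crest and somite counts were 3, 3 and 2. None of these 4 lists had a member called lower, and their part in the Irx3 value was not tested. Their counts are not separate from those of the neural tube list, which shares Pax3, Pax6, Shh and Foxa2 with them. Epicardial markers rose for 2 of 5 (1 with either floor or with the mean of all probes), with Wt1 and Tcf21 at or below the limit on all arrays. Endothelial markers fell for 5 of 8 (2 with either floor), at 23088 to 24010 against 13149 to 13580. Red cell markers fell for 2 of 7 (1 with either floor). Without Hba-x, which was at the top of the range on 3 arrays, the red cell markers summed to 63872 to 65904 against 43035 to 45489.

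**Figure D5:**
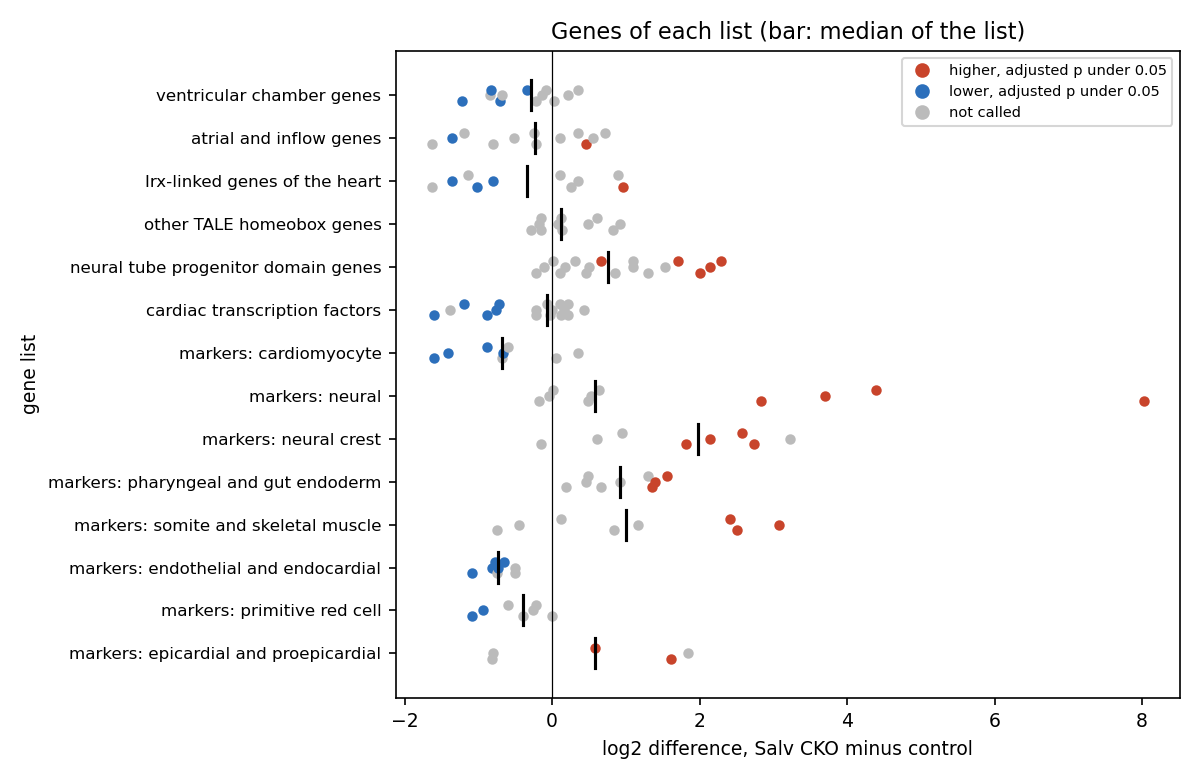
Log2 difference between Salv CKO and control (x axis) of each measured gene of the 14 gene and marker lists (y axis), with red and blue points for genes that passed at an adjusted p under 0.05 and a bar at each list's median. Ventricular and cardiomyocyte lists have their called genes below 0, and the neural tube, neural, neural crest, endoderm and somite lists have theirs above 0.

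The other homeobox genes of the TALE class gave no call in the main test and at most 1 under any alternative. Of 11 measured members of the Meis, Pbx, Pknox, Tgif and Mkx groups 0 rose and 0 fell by limma (3 at an unadjusted p under 0.05). Over all genes limma called 10.6%, so that 0 of 11 is near that share. The median of the 11 was 0.13, or -0.31 with the values as deposited. The repressor Tgif1 came nearest, at 8.94 and 9.03 in the controls and 9.42 and 9.52 in Salv CKO (0.49 ± 0.11, limma adjusted p = 0.0533). It was called higher with cyclic loess, with dim genes left out, with robust eBayes and with the replicate block (limma adjusted p of 0.0328 to 0.0423). Pknox2 followed (0.83 ± 0.25, limma adjusted p = 0.117) and was called with a floor of 64. Meis1 and Meis2, partners of many homeodomain proteins, were at 0.08 and 0.13.

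The genes whose pattern over the 4 arrays lay nearest to each member were taken by the distance between their centred log2 values, among 12402 genes above background on all arrays. For Irx4 they were Adcy5 (distance 0.05, difference -1.19), Ptms (0.05, -1.18) and Trim47 (0.07, -1.19), all called lower. For Irx3 they were Snx5 (0.03, difference 0.59), Dsel (0.03, 0.57) and Cse1l (0.04, 0.57), all called higher. For Irx2 they were Sos1, Slc43a3 and Copz2, with differences of -0.35 to -0.33, none of them called. The nearest to Irx1 were Hapln3, Rg9mtd3 and Orai3, to Irx5 Ndufa1, Them4 and Fbxo7, and to Irx6 Ccdc5, Lce1c and Abhd13. The distances rest on 4 values per gene, and the names describe these arrays only. Those values hold the group difference, so a difference near the member's own follows from the choice and is no separate result.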

How the data were processed

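Per the labels' protocols, RNA from whole hearts was amplified, labelled with Cy5 through amino-allyl groups and read on one-colour arrays. The deposited values were taken to be linear probe intensities with background already subtracted, since 3.37 to 5.99% per array lay below 0. The sources used here give no scanner, background method, scaling or software. Median deposited intensities were 71.1 to 101, and the number of arrays limits the precision. Groups come from the sample titles.

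The 4 columns were quantile normalised over all probes, floored at 1 and put on the log2 scale (limma 3.58.1, R 4.3.3). The background limit of 16 compares with a noise SD of 4.36 to 6.28, taken from the negative values. The platform's table, of 2013, names 1 gene for 21020 probes and no single gene for the other 8902. For genes with several probes the one of highest mean was tested. The test was limma (lmFit, eBayes with an intensity trend), two-sided, with Benjamini-Hochberg adjustment over 16675 genes at 0.05. Other probes were tested over all 21020. The procedure was also run on simulated data drawn from limma's own fitted spread, so that run cannot check that spread. p-values measure only the spread between these pools.

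The 6 gene lists and 8 marker lists (143 of 151 entries measured) and the members were chosen with earlier results of these data known. Named genes are all Iroquois probes, up to 4 called members of each gene list with the largest difference (or the 2 of lowest p), the clusters' neighbours and the 3 genes of nearest pattern. Myl2, Myl3, Myl4, Myl7, Myh6, Actc1, Crabp1, Zic1, Tcf15, Hba-x, Tbx20, Hand1, Kcnd2, Olig2, Meis1, Meis2, Foxd3, Myf5, Wt1, Tcf21, Pax6, Shh and Foxa2 were named after their values were seen. Marker lists are given by counts and sums. Alternatives were the scaling, the floor, a filter on dim genes, the mean of probes, the eBayes settings, the replicate number as a block and leaving out each array. Promoters are from RefSeq, GRCm38.p6.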

Additional observations from a re-analysis of the deposited data

How the results depend on the processing

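With 2 pools per group every call rests on limma's shared spread. Without an intensity trend 0 genes passed (3578 at an unadjusted p under 0.05), with 0 of the 6 Iroquois genes and 0 of the 74 list genes called. Irx4 stood there at -1.22, Irx3 at 0.59 and Irx2 at -0.34. Counts of list genes in this section cover the 6 gene lists and leave out the 8 marker lists. Leaving out 1 array gave 0 calls over all genes (3170 to 3428 unadjusted), the members and the lists, with ranges of -1.23 to -1.21 for Irx4, 0.50 to 0.68 for Irx3, -0.38 to -0.30 for Irx2, -0.46 to 0.77 for Irx6 and -0.17 to 0.13 for the other Irx2 probe, which was at 0.13 without control pool 1 and 0.05 without Salv CKO pool 2. A floor of 16 or 64 left 481 and 491 genes called instead of 1772, 6 and 7 list genes instead of 19, and 1 of the 6 members (Irx4) with each, with Irx2 at -0.34 and Irx3 at 0.59 not called. Under the floor of 64 the third Irx6 probe was at the floor on all arrays and gives no value. With the values as deposited 3330 genes were called, 6.88% of them higher against 46.3% after quantile normalisation, Irx3 was at 0.11 (not called), Irx5 at -0.59 (called), Irx6 at -0.22, and 5 neighbours were called. With the mean of all probes Irx2 was at -0.18 and Irx6 at -0.62, and 1224 genes were called. Leaving out dim genes called 1 neighbour (Rbl2, adjusted p = 0.0493). With the replicate number as a block (replicate block) 2211 genes and 3 of the 6 members were called, and no Iroquois call changed. Over 12402 genes, deviations of same-numbered pools from their group means correlated at r = 0.17, and with 2 pairs the pools share only a number.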
